A study of Arabidopsis thaliana with 42 samples.

Results

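The genes described here are 9 flowering promoters of Arabidopsis thaliana, taken by locus from an RNA-seq table of 34262 features, and all 9 were found. They are CO (AT5G15840), SOC1 (AT2G45660, AGL20 in the reference gene table), AGL24 (AT4G24540), AGL42 (AT5G62165), FUL (AT5G60910, AGL8 in the reference table), SPL3 (AT2G33810), SPL4 (AT1G53160), SPL5 (AT3G15270) and SPL9 (AT2G42200). The rule names them by their place in the flowering pathway, and earlier results of these data were known when they were chosen. CO, AGL42 and FUL lie on chromosome 5, SOC1, SPL3 and SPL9 on chromosome 2, SPL4 on chromosome 1, SPL5 on chromosome 3 and AGL24 on chromosome 4.

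The RNA came from whole seedlings, 14 days old, in 6 groups of 2 libraries, all in the Col-0 ecotype. The groups were the double mutant arp6vil1 at 22 °C, arp6 at 22 °C, vil1 at 27 °C, vil1 at 22 °C, wild type (WT) at 27 °C and WT at 22 °C. The titles give the vil1 allele as vil1-1 and the arp6 allele is not given in the sources used here, nor is the day length of the RNA samples, although long and short days are both mentioned. VIL1, listed under its other symbol VRN5, is a PHD-finger protein of Polycomb repressive complex 2, and ARP6 is a subunit of the complex that places the histone variant H2A.Z. Nothing in the labels says that the libraries of a group are separate cultures, so p-values measure only the spread between these libraries. In all, the series has 42 samples, of which the 30 ChIP samples are not analysed here.

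In long days, the zinc-finger protein CO switches on FT in the leaf phloem. The FT protein travels to the shoot apex and, with the bZIP protein FD, raises transcription of the MADS-box genes SOC1 and FUL and of the small SBP-box genes SPL3, SPL4 and SPL5. SOC1 acts with AGL24 to switch on the meristem identity gene LFY. SPL3, SPL4, SPL5 and SPL9 are also targets of the microRNA miR156, whose level falls as the plant ages, so the same genes collect day length and age signals.

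Levels are in RPKM, which divides the reads of a gene by its length and by the library's depth of 52.5 to 102.8 M reads. The length used is that of the gene's span from start to end, introns included, so levels of genes with long introns are lowered. Besides the level, each library has a floor, the 10th percentile of its nuclear coding genes, which was 0.705 and 0.677 RPKM in arp6vil1, 0 in both arp6 libraries, 0.660 to 0.883 in vil1 and 0.831 to 1.14 in WT. The arp6 libraries stood apart in that 6651 and 6566 features had no reads, while the remaining 10 libraries had 104 to 194 such features. The arp6vil1 libraries stood apart in their chloroplast share of summed RPKM, 17.0% and 14.9%, against 4.07% to 7.64% elsewhere. Their median coding gene had 1.94 and 1.79 RPKM, against 3.34 to 4.97 RPKM elsewhere. ARP6 RNA was at 0.798 and 0.715 RPKM in arp6vil1 and 0.398 and 0.207 RPKM in arp6, against 12.1 to 14.4 RPKM in the libraries with the wild-type gene. VRN5 RNA was present in vil1, at 5.13 to 6.91 RPKM, against 6.67 to 8.71 RPKM in WT, and the RNA level does not check that mutant.

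The 9 promoters differed in how well they could be read at this depth. SOC1 was the most abundant by mean over the 12 libraries, at the 61.5th percentile of coding genes, with 642 to 2714 reads per library. SPL9 (50.7th percentile), SPL3 (45.1), SPL4 (35.9), CO (29.8) and SPL5 (22.6) followed. In the 10 libraries outside arp6, the median library had SOC1 at 6.0 times, SPL9 at 5.42 times, SPL3 at 4.85 times, SPL4 at 3.16 times, CO at 2.40 times and SPL5 at 1.5 times its floor. AGL24, FUL and AGL42 lay near the floor. Their median was 1.10, 1.03 and 0.921 times it, and AGL42 was below the floor in 7 of those 10 libraries. All 9 genes passed the filter of 1 RPKM or more in at least 2 libraries, AGL42 and FUL through 2 WT libraries only and AGL24 through 3. A difference in these 3 between WT and another group is therefore partly set by the filter.

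Several members share their DNA with another gene, and the strand used in counting is not given in the sources used here. SPL3 contains the long noncoding gene AT2G33815, which covers 97.6% of its span and has a read total of 96.9% to 100% of that of SPL3, so the reads of the 2 genes cannot be told apart. CO contains the coding gene AT5G15843, with 54.8% to 87.9% of the read total of CO. SPL5 lies wholly inside AT3G15260, which has 6.62 to 7.86 RPKM, several times the level of SPL5. MIR156i lies inside SPL4 and MIR156j inside SPL9, with read totals of 23.9% to 36.0% and 2.52% to 7.31% of those of the host. SOC1, AGL24, AGL42 and FUL overlap no other gene of the reference table.

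**Figure D1:**
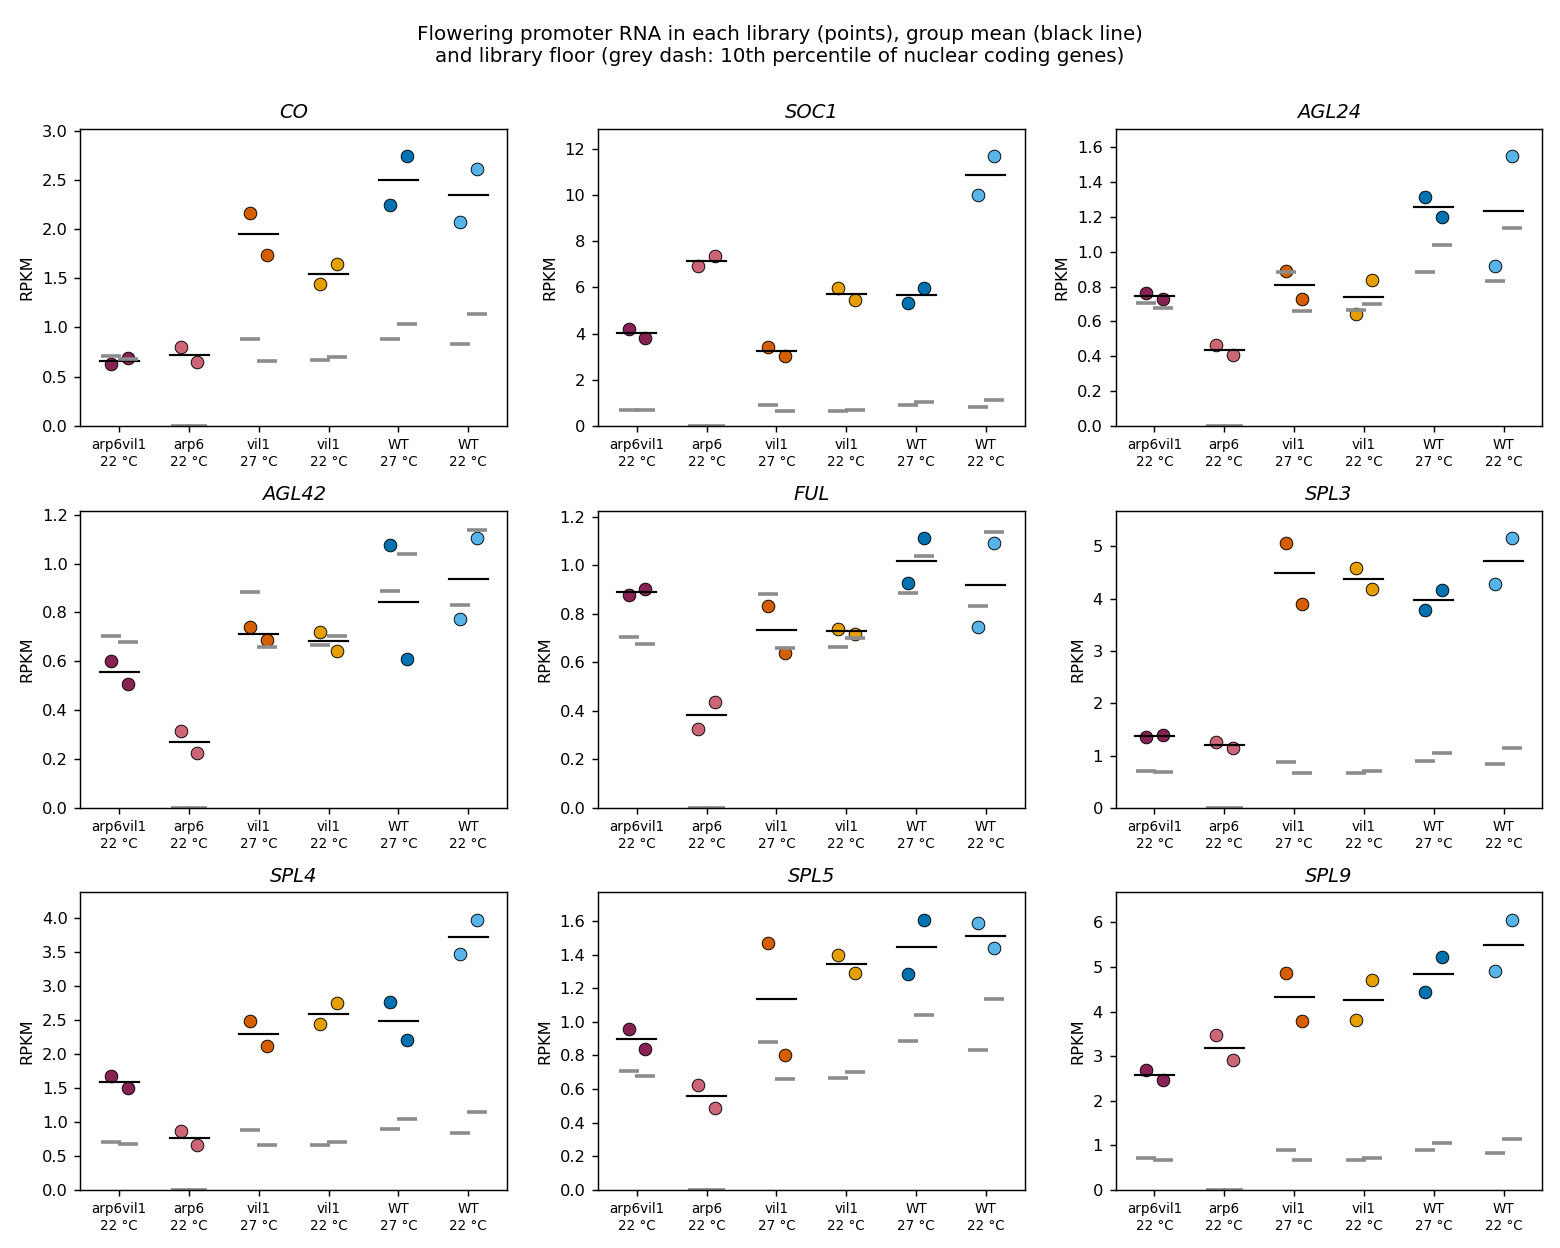
RPKM of each flowering promoter (vertical axis, linear, from 0) in the 12 libraries, by group (horizontal axis). Points are libraries, black lines the mean of 2, and grey dashes each library's floor. SOC1 is highest in WT at 22 °C (9.999 and 11.7 RPKM) and lowest in vil1 at 27 °C (3.42 and 3.03 RPKM), while AGL24, AGL42 and FUL sit near the floor outside arp6.

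SOC1 fell in warm wild-type seedlings. SOC1, the MADS-box integrator of the flowering pathways, had 5.33 and 5.98 RPKM in WT at 27 °C, against 9.999 and 11.7 RPKM in WT at 22 °C. The mean level at 27 °C was 0.521 of that at 22 °C, and the libraries did not overlap. On the log2(RPKM + 1) scale the change was -0.83 (SE 0.11, limma adjusted p = 0.00128), while the median of all features changed by 0.09. Relative to that median SOC1 changed by -0.92. The call held in all 25 alternative settings, in which the change was between -1.14 and -0.57. In whole seedlings, fewer cells of a type and less RNA per cell cannot be told apart. Leaf mesophyll markers also fell, 3 of 4 passing the test, with summed levels of 14401 and 14993 RPKM in WT at 27 °C, against 26147 and 26562 RPKM at 22 °C. None of the 4 shoot meristem markers was at 0 in WT. Their summed levels were 6.27 and 7.19 RPKM at 27 °C, against 5.25 and 6.73 RPKM at 22 °C, and 1 of them rose. The median marker was near the floor, with 1.17 and 1.26 RPKM at 27 °C, where the floor was 0.886 and 1.04 RPKM. The part of either cell type in the SOC1 result was not tested.

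SPL4, an SBP-box factor that acts at the apex, was the other member called in WT. It had 2.77 and 2.21 RPKM at 27 °C, against 3.47 and 3.97 RPKM at 22 °C, with no overlap. The change was -0.44 (SE 0.12, limma adjusted p = 0.0304). That call was lost without WT 22 °C replicate 2 (adjusted p = 0.135), WT 27 °C replicate 1 (0.0525) or WT 27 °C replicate 2 (0.170), and with only the WT groups in the fit (0.160). Its close relative SPL3 had 3.77 and 4.17 RPKM at 27 °C, against 4.28 and 5.17 RPKM at 22 °C. These libraries did not overlap either, but the change of -0.20 did not pass as deposited (SE 0.12, adjusted p = 0.321). It passed with quantile normalization (-0.43, adjusted p = 0.0272) and with median centring (-0.39, adjusted p = 0.0276). For SOC1, SPL4 and SPL3 every warm library was lower, as was the case for 11.8% of all features.

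For the other 6 members the WT libraries at the 2 temperatures overlapped. CO, the photoperiod activator of FT, had 2.25 and 2.75 RPKM at 27 °C, against 2.08 and 2.62 RPKM at 22 °C, with a change of 0.06 and a 95% interval of -0.23 to 0.36. SPL9, which acts in the age pathway, had 4.44 and 5.22 RPKM at 27 °C, against 4.92 and 6.07 RPKM at 22 °C (change -0.15, interval -0.47 to 0.16). SPL5 had 1.29 and 1.61 RPKM at 27 °C, against 1.59 and 1.44 RPKM at 22 °C. It changed by -0.04, AGL24 by 0.03, AGL42 by -0.08 and FUL by 0.08, with SEs of 0.14 to 0.16. Across the features tested, 20.6% were called in this comparison, 3.61% as lower and 16.9% as higher. That split depends on the scaling, since 3160 features were called lower and 1186 higher with median centring. Of the 9 promoters, 2 fell, none rose, and the median member changed by -0.08. All 9 lay below the median of all features.

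Genes upstream of the promoters moved in both directions in warm WT. Of 21 photoperiod and florigen genes, 19 were tested, 7 rose and 3 fell, with a median change of 0.26. GI, a clock-linked activator of CO transcription, rose by 0.82 (SE 0.18, limma adjusted p = 0.0107), and SPA1, which helps to degrade CO protein, rose by 1.03 (SE 0.24, adjusted p = 0.0141). NF-YC4, a subunit of the CCAAT-binding complex through which CO acts, changed by -0.71 (SE 0.09, adjusted p = 0.00158). NF-YB3, a partner of NF-YC4 in that complex, changed by -0.49 (SE 0.12, adjusted p = 0.0191), and FD by -0.08 (SE 0.11, adjusted p = 0.715). Of 15 repressors of FT and SOC1, 4 fell and 1 rose, the fallers including TEM1 (-0.79) and TEM2 (-0.88), which repress FT directly, and the riser being MAF2 (0.36), a relative of FLC. FLC, the MADS-box repressor that binds SOC1, changed by -0.02 (SE 0.10, adjusted p = 0.918) and SVP, its partner, by -0.22 (SE 0.12, adjusted p = 0.249). Of 13 other SPL genes targeted by miR156 and MIR genes, 1 rose, SPL2 by 0.28, and none fell. Of 9 SOC1 relatives and meristem identity genes only LFY and BFT were tested, and neither passed.

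FT, TSF, AP1 and TFL1 were at the limit of the table. Over the 12 libraries FT was at 0.272 to 0.983 RPKM and TSF, its paralog, at 0.0596 to 1.05 RPKM. The meristem identity gene AP1 was at 0.00452 to 0.921 RPKM, and TFL1, which opposes FT at the apex, at 0.139 to 1.19 RPKM. None of the 4 reached 1 RPKM in 2 libraries, so none was tested, and each was lowest in an arp6 library.

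**Figure D2:**
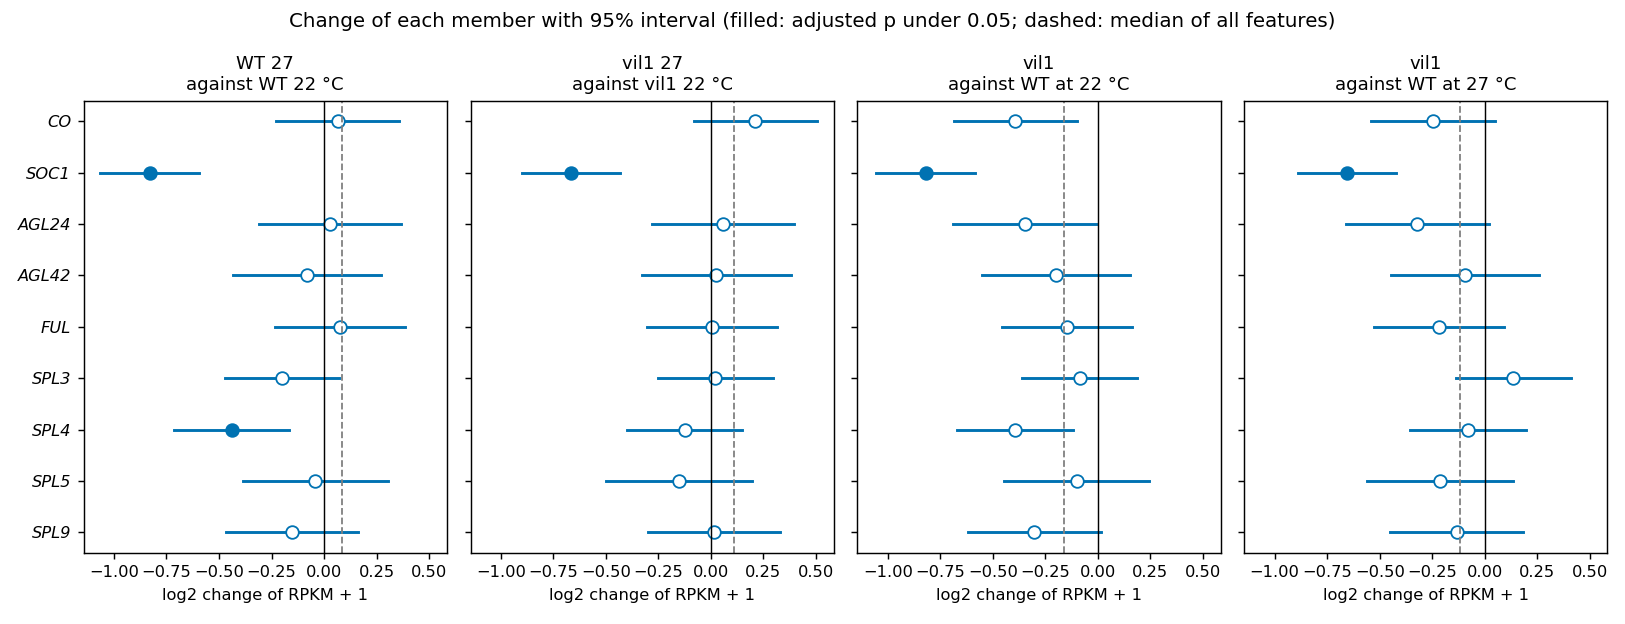
log2 change of RPKM + 1 (horizontal axis) of each flowering promoter (vertical axis) in the 4 comparisons among WT and vil1. Points are changes, lines 95% intervals, filled points have an adjusted p under 0.05, and the dashed line is the median of all features. SOC1 is lower in every panel, by -0.83, -0.67, -0.82 and -0.66 from left to right, and SPL4 is filled in the WT panel alone.

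In vil1 seedlings SOC1 fell in warmth as well. It had 3.42 and 3.03 RPKM in vil1 at 27 °C, against 5.96 and 5.45 RPKM in vil1 at 22 °C. The change was -0.67 (SE 0.11, limma adjusted p = 0.0101), with a median over all features of 0.11. Leaving out any of the 4 vil1 libraries kept the direction (-0.73 to -0.60) and took the adjusted p to between 0.0538 and 0.128. Leaf mesophyll markers fell here too, 2 of 4 passing, with summed levels of 15492 and 15923 RPKM at 27 °C, against 23865 and 22878 RPKM at 22 °C. Of 2 floral organ markers tested 1 rose. The 4 floral organ markers summed to 8.43 and 8.06 RPKM at 27 °C, against 5.07 and 4.76 RPKM at 22 °C. The part of either cell type in the result was not tested.

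No other member passed in vil1. SPL4 had 2.48 and 2.11 RPKM in vil1 at 27 °C, against 2.44 and 2.74 RPKM in vil1 at 22 °C, and the libraries overlapped (change -0.12, interval -0.40 to 0.15). CO had 2.16 and 1.73 RPKM at 27 °C, against 1.44 and 1.65 RPKM at 22 °C. Its change of 0.21 did not pass (SE 0.13, limma adjusted p = 0.463), where the median of all features changed by 0.11. SPL3 had 5.07 and 3.90 RPKM at 27 °C, against 4.59 and 4.18 RPKM at 22 °C. SPL9 had 4.86 and 3.79 RPKM at 27 °C, against 3.82 and 4.71 RPKM at 22 °C, and both of these pairs overlapped. SPL5 had 1.47 and 0.802 RPKM at 27 °C, against 1.40 and 1.29 RPKM at 22 °C. AGL24, AGL42 and FUL changed by 0.06, 0.03 and 0.00, with SEs of 0.14 to 0.16. Of all features 2.40% were called in vil1, 0.461% as lower, and of the 9 promoters 1 fell. Of the 19 photoperiod and florigen genes tested none passed, and of 15 repressors 1 fell, SNZ by -0.40 (SE 0.09, adjusted p = 0.0440).

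The difference between the 2 warm responses was tested itself, to ask whether the response needs VIL1. For SOC1, the response in vil1 minus that in WT was 0.16 (SE 0.15, 95% interval -0.17 to 0.50, limma adjusted p = 0.715). The interval holds 0, and its upper bound leaves room for a response in vil1 weaker by 0.50. For SPL4 the difference was 0.31 (interval -0.07 to 0.70, adjusted p = 0.493), so the call in WT and its absence in vil1 do not show that the responses differ. No member had an unadjusted p under 0.05, the smallest being 0.101 for SPL4, and voom on recovered reads called none of the 9. Over all features limma called 0 of 31454 (0.0%), 3880 had an unadjusted p under 0.05, voom called 7, and leaving out WT 22 °C replicate 1 gave 1803.

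SOC1 was lower in vil1 than in WT at both temperatures. At 22 °C, SOC1 had 5.96 and 5.45 RPKM in vil1, against 9.999 and 11.7 RPKM in WT. The change was -0.82 (SE 0.11, limma adjusted p = 0.00728), or -0.66 relative to the median of all features, which was -0.16. At 27 °C, SOC1 had 3.42 and 3.03 RPKM in vil1, against 5.33 and 5.98 RPKM in WT. There the change was -0.66 (SE 0.11, adjusted p = 0.0197), or -0.54 relative to a median of -0.12. The direction held in every alternative at both temperatures. With only the compared groups in the fit both calls were lost (limma adjusted p = 0.0903 at 22 °C and 0.126 at 27 °C). With the WT and vil1 libraries alone the call at 27 °C was lost (0.0702). The call at 22 °C was lost without WT replicate 2 (adjusted p = 0.0501) or vil1 replicate 1 (0.0628) or 2 (0.0902). At 27 °C it was lost without any of the 4 libraries (0.0656 to 0.199).

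The mean levels of SOC1 in the WT and vil1 groups form 3 steps. Warm vil1 averaged 3.22 ± 0.278 RPKM, vil1 at 22 °C 5.70 ± 0.359, warm WT 5.66 ± 0.457 and WT at 22 °C 10.9 ± 1.21 (SD, n = 2 each). The libraries of vil1 at 22 °C (5.45 to 5.96 RPKM) lay within the range of the warm WT libraries (5.33 to 5.98 RPKM). The 4 comparisons share libraries, so their changes are not independent of each other.

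Among the other members, lower libraries in vil1 at 22 °C were common but none passed the test. The vil1 and WT libraries at 22 °C did not overlap for 8 of 9 members, all lower in vil1, the exception being SPL3. By the same rule 46.1% of all features were lower in vil1. AGL24, AGL42 and FUL are among the 8. They passed the filter through WT libraries only, so their place in that count is partly set by the filter. By the limma test 4.10% of all features were called, 1.95% as lower and 2.15% as higher. CO had 1.44 and 1.65 RPKM in vil1, against 2.08 and 2.62 RPKM in WT (change -0.39, SE 0.13, limma adjusted p = 0.0975). SPL4 had 2.44 and 2.74 RPKM in vil1, against 3.47 and 3.97 RPKM in WT (change -0.39, SE 0.12, adjusted p = 0.0833). SPL9 had 3.82 and 4.71 RPKM in vil1, against 4.92 and 6.07 RPKM in WT (change -0.30, SE 0.14, adjusted p = 0.180). Relative to the median of all features these 3 changes were -0.23, -0.23 and -0.14. Without WT 22 °C replicate 1, 4 members were called, with CO (adjusted p = 0.0354), AGL24 (0.0233) and SPL4 (0.0424) beside SOC1. The count over all features was then 8939 of 31454, 6188 of them lower, against 1291 with that library and 92 without WT 22 °C replicate 2. The library floor was lower in vil1 as well, 0.665 and 0.702 RPKM, against 0.831 and 1.14 RPKM in WT at 22 °C, and its part in these differences was not tested. Of the floral organ markers 1 of 2 tested fell, and the 4 markers summed to 5.07 and 4.76 RPKM in vil1, against 8.06 and 10.4 RPKM in WT. Neither phloem companion cell marker passed, with sums of 37.6 and 40.3 RPKM in vil1, against 33.5 and 28.7 RPKM in WT. The part of these cell types in the SOC1 result was not tested.

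The members near the floor did not pass in vil1 at 22 °C, and no direction is given for them. AGL24 had 0.645 and 0.835 RPKM in vil1 at 22 °C, against 0.918 and 1.55 RPKM in WT (change -0.35, SE 0.15, limma adjusted p = 0.158). FUL had 0.738 and 0.717 RPKM in vil1, against 0.748 and 1.09 RPKM in WT, and AGL42 had 0.722 and 0.642 RPKM in vil1, against 0.771 and 1.11 RPKM in WT. The changes of FUL and AGL42 were -0.15 (adjusted p = 0.460) and -0.20 (adjusted p = 0.382), where the median of all features changed by -0.16.

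At 27 °C, 4 of 9 members had lower, non-overlapping libraries in vil1, as did 39.1% of all features. The 4 include AGL24 and FUL, which passed the filter through WT libraries only, so the count is partly set by the filter. By the limma test 0.922% of all features were called, 0.585% as lower. CO had 2.16 and 1.73 RPKM in warm vil1, against 2.25 and 2.75 RPKM in warm WT (change -0.25, interval -0.54 to 0.05). SPL3 differed in sign from the rest, with a change of 0.13 (interval -0.14 to 0.41, adjusted p = 0.601). Its libraries, 5.07 and 3.90 RPKM in vil1 and 3.77 and 4.17 RPKM in WT, overlapped. Of the pathway genes around the promoters, at 22 °C GI rose in vil1 by 0.79 (SE 0.18, adjusted p = 0.0424) and the AP2-type repressor SMZ fell by 0.40 (SE 0.10, adjusted p = 0.0491), 1 of 19 and 1 of 15 tested. FLC changed by 0.02 at 22 °C (SE 0.10, adjusted p = 0.868) and by 0.13 at 27 °C (SE 0.10, adjusted p = 0.529). At 27 °C no gene of the 4 pathway lists passed.

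In arp6 all 9 promoters were lower than in WT at 22 °C as deposited, but AGL24, AGL42, FUL and SPL5 turned direction with quantile normalization or with the library floor subtracted. Of all features 82.3% were called, 61.8% as lower, and the median feature changed by -0.64, so 9 of 9 called is read against that background. SPL4 had 0.864 and 0.661 RPKM in arp6, against 3.47 and 3.97 RPKM in WT. Its change was -1.42 (SE 0.12, limma adjusted p = 3.62e-06), or -0.78 relative to the median. SPL3 had 1.27 and 1.14 RPKM in arp6, against 4.28 and 5.17 RPKM in WT. Its change was -1.37 (SE 0.12, adjusted p = 4.39e-06), or -0.74 relative to the median. SPL3 and SPL4 were lower and called in all 23 alternatives that tested them, including those that rescale the libraries, with changes of -1.95 to -0.44 for SPL3 and -2.28 to -0.60 for SPL4. With the length trend removed SPL3 changed by -0.44 and SPL4 by -0.64, so they no longer stood out. In that setting CO changed by -0.84, AGL42 by -0.80, SOC1 by -0.65, FUL by -0.64, AGL24 by -0.61, SPL9 by -0.34 and SPL5 by -0.16.

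CO, SPL9 and SOC1 were also lower and called in arp6 as deposited. CO had 0.802 and 0.645 RPKM in arp6, against 2.08 and 2.62 RPKM in WT (change -0.95, SE 0.13, limma adjusted p = 7.71e-05), or -0.31 relative to the median. The call held in 22 of 23 alternatives, among them median centring (-0.58, adjusted p = 0.000483), length trend removal (-0.84, adjusted p = 7.39e-05) and floor subtraction (-0.45, adjusted p = 0.00859). Quantile normalization left CO at -0.05 (adjusted p = 0.658). SPL9 had 3.46 and 2.92 RPKM in arp6, against 4.92 and 6.07 RPKM in WT, a change of -0.63 that was 0.01 above the median. SOC1 had 6.91 and 7.36 RPKM in arp6, against 9.999 and 11.7 RPKM in WT (change -0.54, SE 0.11, adjusted p = 0.000756), which was 0.10 above the median. SOC1 was called in 23 of 24 alternatives, among them quantile normalization (-0.50, adjusted p = 0.00124), length trend removal (-0.65, adjusted p = 0.000182) and floor subtraction (-0.42, adjusted p = 0.00613). With median centring SOC1 changed by -0.17 and did not pass (adjusted p = 0.0993).

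The 4 least abundant members depended on the scaling in arp6. AGL24 had 0.462 and 0.410 RPKM in arp6, against 0.918 and 1.55 RPKM in WT, and FUL had 0.325 and 0.437 RPKM in arp6, against 0.748 and 1.09 RPKM in WT. All of these libraries were lower in arp6. AGL42 had 0.314 and 0.226 RPKM in arp6, against 0.771 and 1.11 RPKM in WT. SPL5 had 0.627 and 0.487 RPKM in arp6, against 1.59 and 1.44 RPKM in WT. As deposited, AGL24 changed by -0.62, AGL42 by -0.61, FUL by -0.47 and SPL5 by -0.69, but with quantile normalization the same genes changed by 0.42, 0.48, 0.57 and 0.31. With the library floor subtracted they changed by 0.21, 0.34, 0.46 and 0.04. The floor of the arp6 libraries was 0, against 0.831 and 1.14 RPKM in WT, and no direction is given for these 4 genes. The FUL call was also lost without WT replicate 2 (adjusted p = 0.0572) or arp6 replicate 1 (0.0703). Shoot meristem markers had summed levels of 4.71 and 3.79 RPKM in arp6, with 1 and 2 of 4 at 0, against 5.25 and 6.73 RPKM in WT with none at 0. Phloem companion cell markers were higher, 52.1 and 45.6 RPKM in arp6, against 33.5 and 28.7 RPKM in WT, and leaf mesophyll markers lower, 15292 and 14688 RPKM in arp6, against 26147 and 26562 RPKM in WT. The part of these cell types in the results was not tested.

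Several genes around the promoters changed in arp6 by more than any promoter did on the log2(RPKM + 1) scale. That scale understates the change of low genes, and the mean level of SPL4 in arp6 was 0.205 of that in WT. Of 19 photoperiod and florigen genes tested, 7 rose and 10 fell, with a median of -0.30. GI rose by 2.51 (SE 0.18, limma adjusted p = 1.14e-06) and FKF1, the blue-light receptor that acts with GI upstream of CO, rose by 1.62 (SE 0.09, adjusted p = 2.41e-07). Of 15 repressors, 13 fell and 1 rose. FLC changed by -2.21 (SE 0.10, adjusted p = 6.82e-08), TEM1 by -2.81 and TEM2 by -3.57, while MAF2 rose by 0.51. NF-YC4 changed by -2.29, NF-YB3 by -1.82 and SVP by -0.75, and FD by -0.21, which did not pass (adjusted p = 0.111). Of 13 other SPL and MIR genes, 12 fell, with a median of -1.04. Of all features 61.8% were called lower in arp6 and 20.6% higher, with a median of -0.64. MIR156C changed by -3.85 (SE 0.19, adjusted p = 1.53e-07) and MIR156A by -3.45 (SE 0.21, adjusted p = 4.87e-07), the precursors of the microRNA that targets the SPL members. Both were lowest in arp6 replicate 2, at 1.11 and 0.781 RPKM, and MIR156B and MIR172A were at 0 in arp6 replicate 1. Other scalings are given for the members alone. How far the MIR changes depend on scaling or gene length is not shown. LFY, a target of SOC1 and AGL24, changed by -1.43 (SE 0.14, adjusted p = 7.64e-06). Its level was low, from 0.0134 RPKM in arp6 replicate 1 to 1.85 RPKM in WT 22 °C replicate 2. The floor was 0.831 and 1.14 RPKM in WT at 22 °C and 0 in arp6, and its part in the LFY change was not tested.

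**Figure D3:**
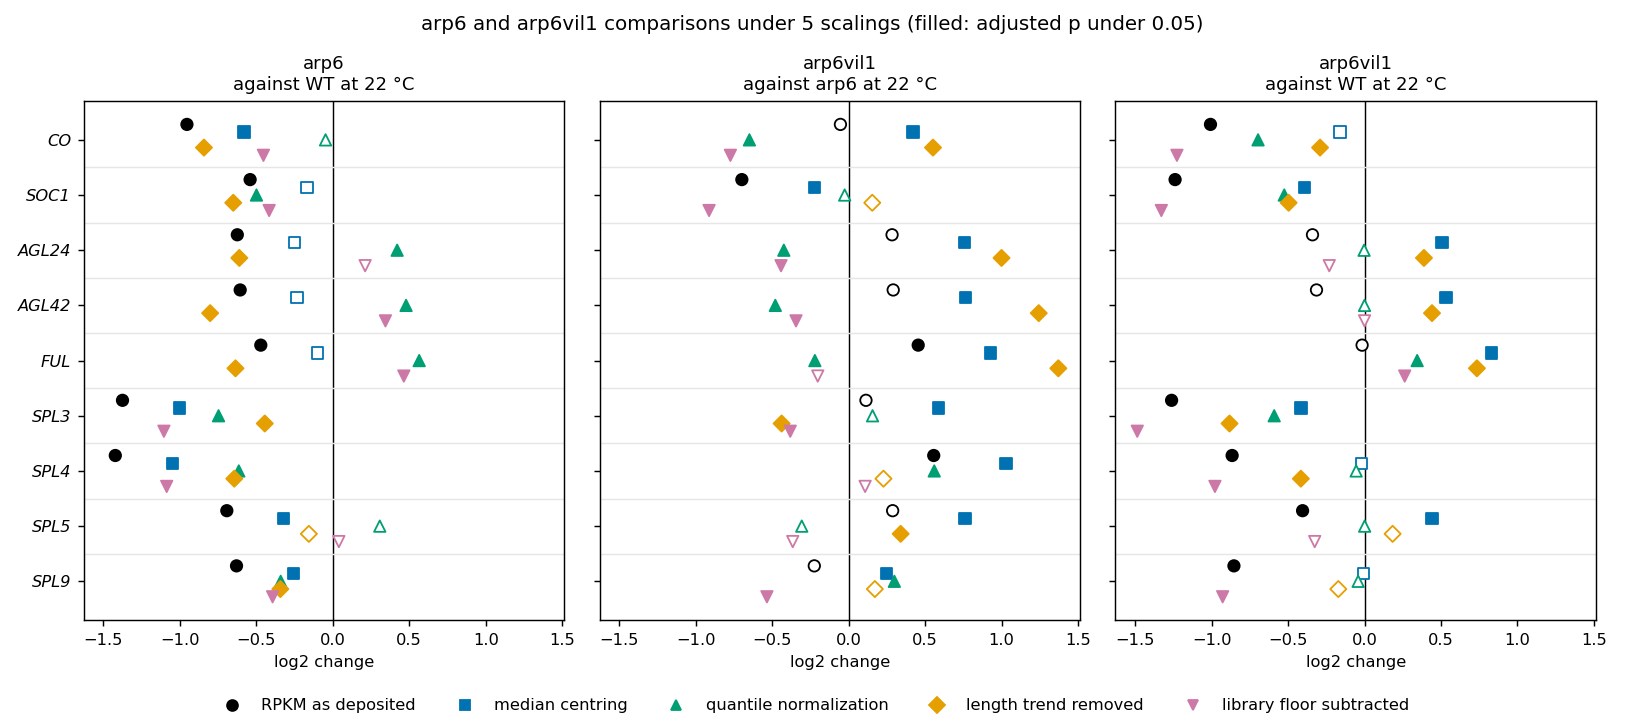
log2 change (horizontal axis) of each flowering promoter (vertical axis) in the 3 comparisons with arp6 and arp6vil1, for RPKM as deposited and for 4 other scalings. Symbols give the scaling and filled symbols an adjusted p under 0.05. SPL3 and SPL4 are left of 0 and filled under every scaling in arp6 against WT, SOC1 and SPL3 in arp6vil1 against WT, and AGL24, AGL42 and FUL change sides.

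In arp6vil1 set against arp6, SOC1 fell and SPL4 and FUL rose as deposited, and the direction of SOC1 and FUL turned under some other scalings. SOC1 had 4.22 and 3.81 RPKM in arp6vil1, against 6.91 and 7.36 RPKM in arp6. The change was -0.70 (SE 0.11, limma adjusted p = 0.000147). It was -0.23 with median centring (adjusted p = 0.0328), -0.03 with quantile normalization (0.820) and 0.15 with the length trend removed (0.181). SPL4 had 1.68 and 1.498 RPKM in arp6vil1, against 0.864 and 0.661 RPKM in arp6 (change 0.56, SE 0.12, adjusted p = 0.00193), and the call was lost with the length trend removed (change 0.23, adjusted p = 0.0954) or the floor subtracted (change 0.11, adjusted p = 0.562). FUL, a MADS-box gene of meristem identity and fruit, had 0.879 and 0.903 RPKM in arp6vil1, against 0.325 and 0.437 RPKM in arp6 (change 0.45, SE 0.14, adjusted p = 0.0119). With quantile normalization it changed by -0.22 and with the floor subtracted by -0.20, and the call was also lost without arp6 replicate 1 (0.0841) or arp6vil1 replicate 2 (0.0533).

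For the remaining 6 members no change passed between the double and the single mutant as deposited, and other scalings called most of them in opposite directions. With median centring CO changed by 0.42, AGL24 by 0.76, SPL3 by 0.59 and SPL9 by 0.25, while with the floor subtracted they changed by -0.77, -0.44, -0.38 and -0.53, and all of these passed. AGL42 passed at 1.24 with the length trend removed and at -0.48 with quantile normalization. No direction is given for these members. SPL3 had 1.36 and 1.40 RPKM in arp6vil1, against 1.27 and 1.14 RPKM in arp6 (change 0.11, interval -0.16 to 0.39). CO had 0.626 and 0.692 RPKM in arp6vil1, against 0.802 and 0.645 RPKM in arp6, and these libraries overlapped. SPL5 had 0.959 and 0.840 RPKM in arp6vil1, against 0.627 and 0.487 RPKM in arp6 (change 0.29, interval -0.06 to 0.63). AGL24 was at 0.765 and 0.731 RPKM and AGL42 at 0.603 and 0.506 RPKM in arp6vil1, close to or below the floor of those libraries. SPL9 had 2.69 and 2.47 RPKM in arp6vil1, against 3.46 and 2.92 RPKM in arp6 (change -0.22, interval -0.54 to 0.09). The libraries of 6 members were all higher in arp6vil1 than in arp6 and those of 2, SOC1 and SPL9, all lower. By the same rule 49.0% of all features were higher and 42.4% lower. By the limma test 79.1% were called, 41.1% as higher and 38.0% as lower. The library floor was 0.705 and 0.677 RPKM in arp6vil1, against 0 in arp6, and its part in these differences was not tested. Of 4 shoot meristem markers 3 rose and 1 fell, with sums of 6.52 and 5.72 RPKM and none at 0 in arp6vil1, against 4.71 and 3.79 RPKM in arp6. Both phloem companion cell markers fell, with sums of 28.6 and 26.3 RPKM in arp6vil1, against 52.1 and 45.6 RPKM in arp6. The part of these cell types was not tested.

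Against WT at 22 °C, 6 members fell in arp6vil1 and none rose as deposited. Under some other scalings CO, SPL4, SPL9 and SPL5 no longer fell past the threshold, and SPL5 turned direction. SOC1 had 4.22 and 3.81 RPKM in arp6vil1, against 9.999 and 11.7 RPKM in WT. The change was -1.24 (SE 0.11, limma adjusted p = 3.81e-06), or -0.70 relative to a median of all features of -0.54. SPL3 had 1.36 and 1.40 RPKM in arp6vil1, against 4.28 and 5.17 RPKM in WT (change -1.26, SE 0.12, adjusted p = 8.15e-06), or -0.72 relative to the median. These 2 genes were lower and called in every alternative that tested them. Of all features 66.1% were called, 61.2% as lower and 4.91% as higher. That split depends on the scaling, since 14258 features were called higher and 4466 lower with median centring.

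The other 4 calls against WT were CO (-1.01), SPL4 (-0.87), SPL9 (-0.85) and SPL5 (-0.41). They were -0.47, -0.32, -0.31 and 0.14 relative to the median. With median centring CO (-0.16), SPL4 (-0.02) and SPL9 (-0.01) no longer passed, and SPL5 was higher, at 0.44. Quantile normalization left SPL4 at -0.05 (limma adjusted p = 0.685), SPL9 at -0.04 (0.781) and SPL5 at 0.00062 (0.997), while CO passed (-0.70). With the length trend removed SPL9 (-0.17, adjusted p = 0.222) and SPL5 (0.18, 0.258) did not pass, while CO (-0.29) and SPL4 (-0.42) did. With the floor subtracted only SPL5 of these did not pass (-0.33, adjusted p = 0.158). The SPL5 call (adjusted p = 0.0402) was also lost without any one of the 8 libraries at 22 °C (0.0547 to 0.161). FUL had 0.879 and 0.903 RPKM in arp6vil1, between the 0.748 and 1.09 RPKM of the WT libraries.

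Whether losing ARP6 acts the same with and without VIL1 was tested as a difference of 2 effects, arp6vil1 minus vil1 and arp6 minus WT, all at 22 °C. For SOC1 it was 0.12 (SE 0.15, interval -0.21 to 0.45, limma adjusted p = 0.470). It was larger and passed with median centring (0.48), quantile normalization (0.80) and the length trend removed (0.98). For SPL4 it was 0.95 (SE 0.17, adjusted p = 0.000690), so that the fall of SPL4 in arp6 was smaller in the vil1 background. That call held in 22 of 23 alternatives and was lost with the library floor subtracted (0.47, adjusted p = 0.0747). AGL24 (0.63, adjusted p = 0.0212) and FUL (0.60, adjusted p = 0.0178) passed as deposited. Both changed sign with quantile normalization and with the floor subtracted. Both passed the filter through WT libraries only, and WT at 22 °C enters this difference with a plus sign, so these values are partly set by the filter. The AGL24 call was lost without WT 22 °C replicate 2 (adjusted p = 0.0614), vil1 22 °C replicate 1 (0.0742), arp6 replicate 2 (0.0649) or arp6vil1 replicate 1 (0.0568), and that of FUL without arp6 replicate 1 (0.0705). Of all features 75.2% were called here, 42.5% as higher and 32.7% as lower.

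Genes around the promoters also differed between the double and the single mutant, in a comparison that shares its arp6 libraries with the one above. Against arp6, GI changed by -3.11 (SE 0.18, limma adjusted p = 1.02e-07) and FKF1 by -2.83 (SE 0.09, adjusted p = 1.14e-08) in arp6vil1. FLC rose by 1.47 (SE 0.10, adjusted p = 2.35e-07), TEM2 by 2.17 and MIR156A by 2.16. LFY, at 0.0134 to 1.85 RPKM over the 12 libraries, changed by 0.89, and the part of the library floor was not tested. Of 19 photoperiod and florigen genes 3 rose and 11 fell, and of 15 repressors 8 rose and 3 fell. Of 13 other SPL and MIR genes 8 rose and 2 fell, where 41.1% of all features were called higher and 38.0% lower. Against WT at 22 °C, 17 of 19 photoperiod and florigen genes and 13 of 15 repressors fell in arp6vil1, with medians of -1.03 and -0.43. All 13 other SPL and MIR genes fell too, with a median of -1.13. Of all features 61.2% were called lower there as deposited, but with median centring more were called higher (14258) than lower (4466). Both comparisons carry the chloroplast share and the low median given above for arp6vil1, whose part was not tested.

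As a description over all 12 libraries, SOC1 stood apart from the other members, but within the WT and vil1 libraries it did not. Over the 12 libraries the 28 pairs among the other 8 members had Pearson correlations of 0.43 to 0.94. The 8 pairs with SOC1 had -0.0075 to 0.45. SPL3 and SPL9 followed CO most closely over the 12 libraries, with Pearson correlations of 0.92 and 0.94. SOC1 correlated with CO at 0.23 and with SPL3 at 0.13. Within the 8 WT and vil1 libraries the pairs with SOC1 had 0.33 (SPL3) to 0.86 (SPL4). The other pairs had 0.07 (AGL42 with SPL5) to 0.89 (CO with FUL). There CO correlated with SPL3 at 0.19, with SPL9 at 0.80 and with AGL24 at 0.87. The libraries share depth and floor differences, and no p is given. Among genes at a mean of 5 RPKM or more, those most like SOC1 over the 12 libraries were RABA2c (0.95) and TRX5 (0.92), out of 5604 compared.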

How the data were processed

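The submitters' processing notes list edgeR, bedtools, SAMtools, Bowtie2, HISAT2 and FastQC and the build TAIR10, without the role of each tool. The authors deposited 1 table of RPKM for 34262 features and 12 libraries. Gene names and overlaps came from a RefSeq table, which matched 32548 features. Its assembly differs, so no coordinates are printed. Dividing out depth and feature length turned 99.94% to 99.96% of values into whole reads (tolerance 0.02), which gave depths and reads per gene.

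The test was limma 3.58.1 in R 4.3.3 on log2(RPKM + 1), with 1 mean per group over all 12 libraries and trended empirical Bayes variances. It covered the 31454 features at RPKM 1 or more in 2 or more libraries, with Benjamini-Hochberg adjustment over them at 0.05. A change on this scale understates that of low genes. With 2 libraries a group, an exact permutation test cannot go below p = 0.333, and none is given. The scripts were tested on simulated data. Named pathway genes were FT, TSF, FD, LFY, AP1, TFL1, GI, FLC and SVP, and per list up to 2 rises and 2 falls past the threshold averaging RPKM 5 or more in any compared group. The members and lists were chosen with earlier results of these data known. Alternatives were other pseudocounts, filters, scalings, variance models and sample sets, voom on recovered reads (29869 features) and leaving out each library.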

Additional observations from a re-analysis of the deposited data

Results flagged for a closer look

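The effect of losing ARP6 differed between the vil1 and WT backgrounds for several genes, by a limma test of the difference of effects (arp6vil1 minus vil1, less arp6 minus WT, at 22 °C). Among the promoters this difference was 0.95 for SPL4, 0.63 for AGL24 and 0.60 for FUL. The last 2 changed sign with quantile normalization and with the floor subtracted (-0.22 and -0.26). They passed the filter through WT libraries only, and WT at 22 °C enters this difference with a plus sign. Their values are therefore partly set by the filter. Among photoperiod genes it was -3.91 for GI, -2.995 for FKF1, 1.53 for NF-YB3, 1.13 for NF-YC4 and -0.45 for FD. Among repressors it was 1.45 for FLC, 0.78 for SVP, -1.66 for MAF2, 2.12 for TEM1, 2.51 for TEM2 and -0.54 for SNZ. It was 2.70 for MIR156A, 2.57 for MIR156C and 1.12 for LFY. Each of these was lowest in an arp6 library, at 0.781, 1.11 and 0.0134 RPKM. Over all features 75.2% were called in this test, and the median feature differed by 0.30. The features with no reads in arp6 and the chloroplast share of arp6vil1 set these libraries apart, and the part of either was not tested.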

How the results depend on the processing

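Of the member changes recomputed under each alternative, 1773 kept direction and side of the threshold, 55 lost the call, 50 gained it and 39 turned sign with a call on one side or both. The cause was not tested. The turns all lie in comparisons with arp6 or arp6vil1 and with 4 scalings.

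In arp6 against WT, quantile normalization gave 0.42 for AGL24, 0.48 for AGL42, 0.57 for FUL and 0.31 for SPL5, and floor subtraction, chosen after seeing the data, 0.21, 0.34, 0.46 and 0.0397. In arp6vil1 against arp6, quantile normalization gave -0.42 for AGL24, -0.48 for AGL42, -0.22 for FUL and 0.30 for SPL9, median centring 0.42 for CO and 0.25 for SPL9, removal of the length trend 0.55 for CO, 0.15 for SOC1 and -0.44 for SPL3, and floor subtraction -0.44 for AGL24, -0.34 for AGL42, -0.20 for FUL and -0.38 for SPL3. In arp6vil1 against WT, median centring gave 0.51 for AGL24, 0.53 for AGL42, 0.83 for FUL and 0.44 for SPL5, length trend removal 0.39, 0.44, 0.73 and 0.18, quantile normalization 0.34 for FUL and 0.00062 for SPL5, and floor subtraction 0.26 for FUL. For the difference of ARP6 effects, quantile normalization gave -0.47 for CO, -0.34 for AGL24, -0.52 for AGL42 and -0.31 for FUL, floor subtraction -0.22 for AGL24 and -0.26 for FUL, and length trend removal -0.60 for SPL3.

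The number of members called in warm against cool WT was 2, but 1 with a pseudocount of 0.1, with only the contrast's groups or with WT and vil1 libraries alone (chosen after seeing the data), 4 with quantile normalization (SOC1, SPL4, SPL3 and SPL9), 3 with median centring (SOC1, SPL4 and SPL3), and 1 to 2 leaving out a library. In warm vil1 it was 0 to 1 leaving out a library. For vil1 against WT it was 0 with only the contrast's groups at both temperatures and 0 at 27 °C with WT and vil1 libraries alone. Leaving out a library gave 0 to 4 at 22 °C and 0 to 1 at 27 °C. In arp6 it was 9, all lower, but 5 with median centring, where 24789 of 31454 features were called, 8 with length trend removal, 7 with quantile normalization (3 of them higher: AGL24, AGL42 and FUL) and 7 with floor subtraction (2 of them higher: AGL42 and FUL). For arp6vil1 against arp6 it was 3, but 5 with a pseudocount of 0.1 or voom, 9 with median centring, and 6 with quantile normalization, length trend removal, only the contrast's groups or floor subtraction. For the difference of ARP6 effects it was 3, but 6 with quantile normalization, 9 with median centring, 8 with length trend removal and 0 with floor subtraction. A filter at mean RPKM 5 left SOC1 alone to test, so the count was 1 at most, and 0 for the difference of ARP6 effects.

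The counts over all features ranged over the alternatives between 1290 and 7372 for warm WT, 149 and 2088 for warm vil1, 30 and 8939 for vil1 against WT at 22 °C and 62 and 492 at 27 °C. With the replicate number as a block, 619 features were called for vil1 against WT at 22 °C, against 1291 without it, and no member gained or lost a call. Differences between replicates correlated at -0.25 to 0.22 between groups, which cannot tell whether the numbers pair the samples. The highest value, 0.22, was between the WT groups at 22 and 27 °C. Their depths also matched by number, at 74.98 and 74.95 M reads for replicate 1 and 61.61 and 61.53 M for replicate 2.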
